A study of Oryza sativa with 20 samples.

Results

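Late-rising genes of rice under feeding by the rice leaf folder *Cnaphalocrocis medinalis* are described here. Their mRNA stood higher after 24 h of feeding than both in unfed leaves (0 h) and at 6 h. Members were chosen from measured values. Levels are FPKM, fragments per kilobase of transcript, scaled to the depth of the library, and differences are between time point means of log2(FPKM + 1). A locus whose FPKM reached 0.5 in 4 or more of the 20 libraries was kept where its 24 h mean was at least 1 above its 0 h mean and its 6 h mean, and its 6 h mean was less than 0.8 above its 0 h mean. This rule gave 98 members among 20343 loci with an OS identifier that passed the filter on low values, out of 37830 such loci listed.

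The leaves came from 5-week-old Minghui 63 plants, and each of the 20 libraries merged leaves of 5 independent plants, with 4 libraries per time point. Plants of the 1, 6, 12 and 24 h groups carried 1 starved larva of instar 3 in a Parafilm bag on the second leaf from the top, and the 0 h plants carried an empty bag. Feeding started at staggered times and all leaves were taken at the same moment. The libraries held 17796577 to 22090180 fragments on genes.

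The leaf folder is a chewing moth larva that shelters in a rolled rice leaf. Rice responds to chewing with calcium signals, protein kinases and jasmonic acid, a wound hormone made from linolenic acid, and these early signals are followed by slower changes in transcription factors, secondary metabolism and defense proteins. The members carry bare identifiers here, since no member was matched in the RefSeq gene table, so no role is given for any of them. The leaf identity of the samples was not checked against markers. In bulk leaf RNA, fewer cells of a type and less RNA per cell cannot be told apart.

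At 24 h the members' mean levels ran from 1.86 to 653 FPKM with a median of 21.1. Their median was 6.81 FPKM in the unfed 0 h plants, 6.33 and 6.11 after 1 h and 6 h, and 7.78 after 12 h. All OS loci that passed the filter had medians of 8.61 FPKM at 0 h and 9.19 at 24 h. The members' median was therefore below that of all loci at 0 h and above it at 24 h, a rise that the rule required. The median ratio of 24 h to 0 h was 3.57. Members together took 0.139% to 0.257% of the fragments in the 0 h libraries, 0.325% to 0.434% in the 12 h libraries and 0.493% to 0.703% in the 24 h libraries.

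The differences that chose the members are given as description only. The 24 h mean exceeded the 0 h mean by 1.02 to 3.43, with a median of 1.51. Over the 6 h mean the excess was 1.01 to 3.17, with a median of 1.36. The 6 h mean lay between 0.89 below and 0.78 above the 0 h mean (median difference 0.10). Just inside the 24 h over 0 h threshold stood OS10G0555900 and OS01G0631800, each at 1.02, and just outside stood OS02G0193300 and OS01G0706700, each at 0.99. At the 24 h over 6 h threshold, OS03G0197050 and OS10G0518000 were inside at 1.01, and OS01G0930400 at 1.00 and OS01G0221000 at 0.99 were outside. At the upper limit for 6 h over 0 h, OS02G0764700 at 0.78 and OS09G0472900 at 0.76 were inside, and OS07G0680600 at 0.82 and OS10G0109600 at 0.86 were outside. A further 75 loci missed only the first threshold, 133 only the second and 19 only the third.

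Whether the members had already moved by 12 h was asked with the difference between the 12 h and 1 h means, which the rule did not use beyond the filter on low values. Between these time points 34 of the 98 members rose (34.7%) and 0 fell, by limma-trend at a false discovery rate (FDR, Benjamini-Hochberg) under 0.05. Across all 24058 identifiers tested, 1441 rose, that is 5.99%, and 2472 fell, that is 10.3%. The median difference of the members was 0.31, beside -0.04 for all identifiers tested. At an unadjusted p under 0.05, 44 members were higher and 0 lower, and limma-voom on recovered fragments called 34 higher and 0 lower. These fits pooled the spread over all 20 libraries, so the values at 0 h, 6 h and 24 h, which the rule had used, entered the test. The members' median SD of log2(FPKM + 1) was 0.48, 0.39 and 0.48 at those times, but 0.29 at 1 h and 0.24 at 12 h. A fit of the 1 h and 12 h libraries alone called 32 higher and 3 lower, so 0 lower was found only with the pooled spread. With median-of-ratios factors 1916 identifiers rose and 1918 fell over all, and 37 members were higher and 0 lower.

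Among the 34 members that rose, the differences were 0.43 to 2.24 with a median of 1.10. In 32 of them all 4 libraries at 12 h were above all 4 at 1 h. Over all 98 members this separation was seen for 35, against 7.08% of all identifiers tested, and the opposite one for 7, against 11.3% of all. The remaining 64 members were not called, and their values lay on either side of the 1 h level.

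**Figure D1:**
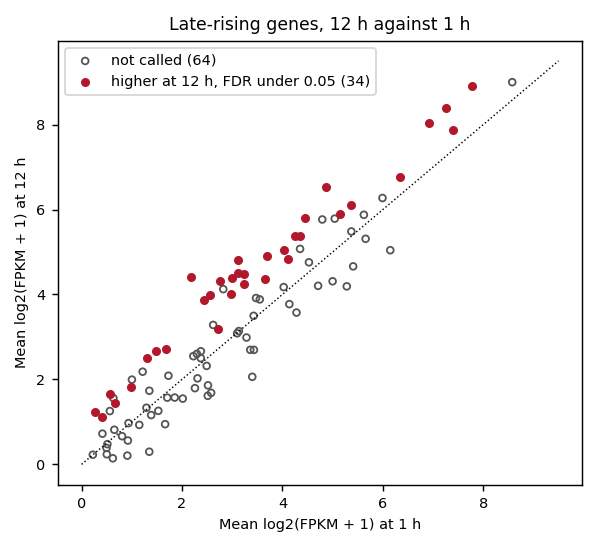
Mean log2(FPKM + 1) of the 98 late-rising genes at 1 h (x axis) and 12 h (y axis), 4 libraries each, with the line of equality dotted. The 34 filled points, genes that rose from 1 h to 12 h, all lie above the line, and the 64 open points lie on both sides of it.

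OS02G0685200 showed the highest difference from 1 h to 12 h of the 98 members. The 0 h libraries held 4.67, 2.52, 3.38 and 3.21 FPKM, the 1 h libraries 3.83, 3.57, 3.46 and 3.25, and the 6 h libraries 3.42, 3.68, 3.35 and 2.52. By 12 h the level was 21.2, 16.3, 25.9 and 19.4 FPKM, and after 24 h it was 22.6, 19.0, 14.9 and 23.3. The 12 libraries up to 6 h were all low, the 8 later ones were all high, and the ranges did not overlap. The log2 difference between 12 h and 1 h was 2.24 (SE 0.16, limma-trend FDR 8.3e-08).

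OS02G0815700 had closely grouped replicates. Its levels were 5.60, 7.15, 5.84 and 4.63 FPKM at 1 h and 19.7, 18.1, 18.0 and 20.4 at 12 h. At 24 h they were 21.4, 19.4, 20.6 and 19.4 FPKM. Every 12 h library was thus above every 1 h library, and the 12 h and 24 h ranges overlapped. The log2 difference between 12 h and 1 h was 1.57 (SE 0.10, limma-trend FDR 1.6e-08).

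OS10G0330400 behaved alike at a higher level. It stood at 31.9, 33.2, 32.7 and 18.7 FPKM at 1 h and at 118, 97.9, 80.5 and 73.8 at 12 h. The 24 h libraries had 144, 128, 99.2 and 139 FPKM. Replicate 4 was the lowest at 1 h, the groups did not overlap, and the log2 difference was 1.65 (SE 0.20, limma-trend FDR 2.8e-05).

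Of the 10 members with the highest differences between 12 h and 1 h, 9 passed the test, a count favoured by ranking on the tested difference. Beside the 3 genes above, these were OS02G0589100 (1.34), OS02G0642200 (1.38), OS03G0638200 (1.39), OS04G0400000 (1.44), OS06G0493100 (1.71) and OS07G0677100 (1.44), all in log2 units. The tenth, OS10G0569600, missed it with a difference of 1.30 (limma-trend FDR 0.13): its 12 h libraries were at 13.4, 10.5, 75.4 and 6.35 FPKM, and replicate 3 stood apart. The call for OS06G0493100 (FDR 0.037, limma-trend) also turned on replicate 3 at 12 h, which was at 76.7 FPKM beside 20.6, 21.3 and 16.1 in the others. Without that library its difference was 1.22 with a limma-trend FDR of 0.12. The largest falls in value belonged to OS01G0955100 (-1.34, FDR 0.28), OS06G0683400 (-1.11, FDR 0.33), OS06G0133400 (-1.09, FDR 0.43) and OS03G0820400 (-1.05, FDR 0.27), none of which passed limma-trend.

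The 1 h libraries showed how early any member moved. By mean value, 59 members stood above 0 h at 1 h and 39 below. Limma-trend at an FDR under 0.05 called 6 members higher at 1 h than at 0 h and 0 lower. The rule had used the low 0 h values, so the counts are given as description, beside 1.77% and 1.29% of all identifiers tested. The unadjusted counts were 13 higher and 4 lower, and limma-trend on the 0 h and 1 h libraries alone called 2 higher. Without replicate 1 of 1 h the count was 3. The 6 genes were OS01G0700100 (1.00), OS11G0600900 (0.99), OS02G0613900 (0.88), OS03G0290300 (0.68), OS03G0197050 (0.64) and OS07G0633000 (0.57, limma-trend FDR 0.0052), with log2 differences in parentheses. OS11G0600900, OS02G0613900, OS03G0197050 and OS07G0633000 are named here as a small count, after their values were seen.

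In each of these 6 the 6 h mean was below the 1 h mean, and at 12 h all 6 were called above the same 0 h libraries. The rule kept only genes with low 0 h and 6 h means, which favours both, so this course is a description. OS01G0700100 is an example. The unfed libraries held 89.2, 71.0, 90.1 and 85.0 FPKM, those of 1 h 184, 152, 161 and 175, and those of 6 h 87.3, 77.0, 82.5 and 63.1. They reached 246, 208, 252 and 230 FPKM at 12 h and 206, 179, 159 and 210 at 24 h. Levels at 1 h, 12 h and 24 h were all above every library of 0 h and 6 h, and the 0 h and 6 h ranges overlapped. From 0 h to 1 h the log2 difference was 1.00 (limma-trend FDR 0.00016), and from 1 h to 12 h it was 0.47 (SE 0.11, FDR 0.0071).

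By the 12 h level the 98 members fell into 3 sets, a division made after the values were seen and given without a test between the sets. In 31 members the 12 h mean was at least 1 above the 0 h mean, in 34 it was 0 to 1 above, and in 33 it was below. The rule chose members for low 0 h means, which favours higher calls against 0 h, so the next counts are a description only. Against 0 h, limma-trend called 42 of the 98 members higher at 12 h and 1 lower, beside 5.76% and 8.63% of all identifiers tested, that is 1386 higher and 2077 lower, which median-of-ratios factors changed to 1807 and 1631. The lower one was OS09G0522200, and its call was lost without replicate 2 or replicate 4 of either time point.

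The 31 genes that were already high at 12 h included 24 of the 34 that rose from 1 h to 12 h, a count that the division by 12 h level favours. For these 31 the median difference between 24 h and 12 h was 0.35, and 5 of them had a lower mean at 24 h than at 12 h. All 4 libraries at 24 h were above all 4 at 0 h in each of the 31, but above all 4 at 12 h in only 5. OS02G0642200 was 1 of the 5 with a lower 24 h mean, at 19.9 ± 2.63 FPKM (SD, n = 4) at 12 h and 16 ± 5.60 at 24 h, where the libraries ranged from 11.9 to 24.1.

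The 34 intermediate genes held the other 10 members that rose from 1 h to 12 h, and their median difference between 24 h and 12 h was 0.90. OS06G0591200 was nearly silent early, with 0.278 ± 0.178 FPKM at 0 h and 0.386 ± 0.222 at 6 h (SD, n = 4). At 12 h its libraries held 2.00, 1.26, 1.03 and 1.18 FPKM, and at 24 h 9.72, 6.18, 11.7 and 9.80. The 24 h libraries lay above all the 12 h libraries, and these above all earlier ones. Its log2 difference between 12 h and 1 h was 0.97 (SE 0.18, limma-trend FDR 0.0016).

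In the 33 genes with a 12 h mean below 0 h, the 24 h mean exceeded the 12 h mean by 1.29 to 3.57, with a median of 2.15. The rule and the division together fixed an excess above 1, so it is a description. In 27 of the 33 all 4 libraries at 24 h were above all 4 at 12 h. None of the 33 rose from 1 h to 12 h by limma-trend, which the division by 12 h level favours. In only 6 of the 33, however, were all 4 libraries at 24 h above all 4 at 0 h, and in 11 above all 4 at 6 h. Over the 98 members these counts were 61 at 0 h, 67 at 6 h and 50 at 12 h, where all identifiers gave 14.1%, 8.04% and 9.53%. They are given as description, as the rule had used the 24 h means.

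**Figure D2:**
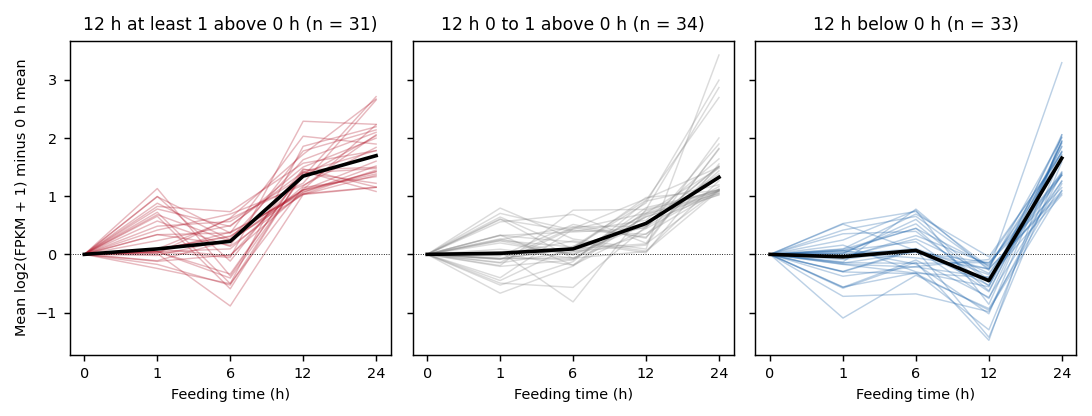
Mean log2(FPKM + 1) at each feeding time minus the 0 h mean, 1 thin line per gene and the median in black, in 3 panels by the 12 h level (31, 34 and 33 genes, n = 4 libraries per time point, time points evenly spaced on the x axis). The left panel is high by 12 h, and in the right panel the whole excess lies between 12 h and 24 h, as the rule and the division require.

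The 33 genes varied widely among replicates. Their median SD of log2(FPKM + 1) was 0.97 at 0 h, 0.57 at 6 h and 1.06 at 24 h. At these times it was 0.28, 0.34 and 0.25 for the 31 genes high at 12 h. For the 34 intermediate genes it was 0.35, 0.31 and 0.46, and for all identifiers tested 0.14, 0.15 and 0.15. The rule used the means of these time points, so their spread is a description. At 1 h and 12 h, which the rule did not use although the division into sets used 12 h, the SD of the 33 genes was 0.42 and 0.26, and that of all identifiers 0.17 at both times. The spread of the 33 genes was thus wider than that of all identifiers at each time point, and nearest to it at 12 h. At 1 h and 12 h the SD was 0.24 and 0.27 for the 31 genes and 0.27 and 0.23 for the 34 intermediate ones. At 12 h the 33 genes therefore lay between the other sets.

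The same libraries were often high or low in these genes. At 0 h, replicate 4 was the highest library in 23 of the 33 genes, compared with 25.1% of all identifiers tested, and replicates 1 and 3 were the lowest in 19 and 13, compared with 39.4% and 22.9%. At 24 h, replicate 2 was the highest in 24 and replicate 1 the lowest in 26, compared with 21.8% and 27.1% of all identifiers. At 6 h, replicate 1 was the lowest in 31, compared with 35.8% of all. At 1 h, replicate 3 was the lowest in 24, compared with 31.1%, and at 12 h replicate 4 in 21, compared with 33.8%. Replicate 1 had the lowest median over the 33 genes at 0 h, 6 h and 24 h, and replicate 2 the highest at 1 h, 6 h and 24 h. Part of this was also seen in the 34 intermediate genes. In them replicate 4 of 0 h was the highest in 20, and replicate 1 was the lowest in 20 at 6 h and in 19 at 24 h. Replicate 2 of 24 h, however, was the highest in only 8 of the 34, and replicate 4 of 12 h the lowest in 8. Members were not independent of each other within a library. What set the level of the members in a library was not tested.

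Taken over the 33 genes, the median difference from the 0 h mean was -0.80, 0.32, -0.69 and 0.97 in the 0 h libraries and 0.53, 2.61, 2.04 and 1.24 in the 24 h libraries. Replicate 4 at 0 h was therefore above replicate 1 at 24 h, and the 2 time points overlapped. At 12 h the medians were closely grouped at -0.35, -0.50, -0.36 and -0.61. For the 31 genes high at 12 h the medians were 1.33, 1.31, 1.33 and 1.18 at 12 h and 1.56, 1.70, 1.76 and 1.69 at 24 h, where replicate 4 was the lowest at 12 h and replicate 1 at 24 h. The median of all identifiers tested stayed between -0.08 and 0.13 in every library.

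**Figure D3:**
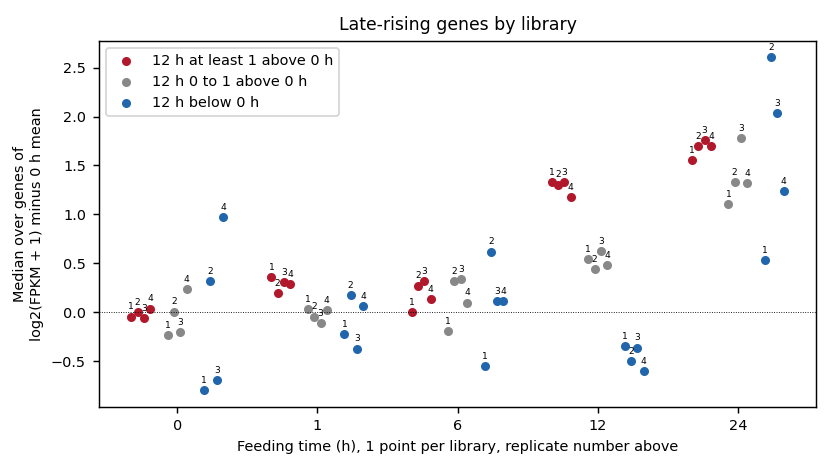
Median difference of log2(FPKM + 1) from the 0 h mean in each of the 20 libraries, for the 3 sets of late-rising genes by 12 h level. The 33 genes with a 12 h mean below 0 h (blue) spread from -0.80 to 0.97 at 0 h and from 0.53 to 2.61 at 24 h, and the 31 genes high at 12 h (red) from 1.56 to 1.76 at 24 h.

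OS06G0683400 and OS06G0133400 were the most abundant of the 33 at 24 h. OS06G0683400 had 21.8, 102, 23.0 and 225 FPKM in the 0 h libraries, 49.5, 21.3, 44.5 and 22.1 in the 12 h libraries, and 77.2, 632, 343 and 163 in the 24 h libraries. OS06G0133400 had 10.1, 29.5, 20.5 and 259 FPKM at 0 h, 35.5, 11.4, 19.8 and 10.8 after 12 h, and 52.1, 569, 158 and 87.8 after 24 h. In OS06G0683400 replicate 4 of 0 h exceeded 2 of the 4 libraries at 24 h, in OS06G0133400 it exceeded 3, and in both genes every 24 h library was above every 12 h library.

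Single libraries weighed most on the steepest member. OS09G0537700, singled out after its values were seen, had the largest excess of 24 h over 0 h (3.43), with 0.33, 122, 18.4 and 4.84 FPKM at 24 h and at most 0.21 in the 0 h libraries. Its 1 h replicate 4 was at 8.15 FPKM and the other 1 h libraries at 0.24 or less. Only OS09G0537700 and OS03G0678800 would have failed the filter on low values without the 24 h libraries, and 96 members would have passed it.

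The 10 members with the highest levels at 24 h spanned all 3 sets. OS10G0569800 was the most abundant, with 411, 628, 995 and 580 FPKM in its 24 h libraries and 391, 293, 524 and 212 in its 12 h libraries. Earlier, the 1 h libraries held 207, 91.6, 129 and 222 FPKM and the 0 h libraries 170, 97.9, 117 and 249. Its 24 h libraries were above all those of 0 h and 1 h, and its 12 h and 1 h ranges overlapped. The difference between 12 h and 1 h was 1.13 (SE 0.36, limma-trend FDR 0.038), and the call was lost without either replicate 2 or replicate 3 of 1 h and without replicate 1, 2 or 3 of 12 h, with FDR 0.053 to 0.11 by limma-trend.

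OS03G0290300 came next, with 568, 606, 633 and 679 FPKM in its 24 h libraries and 494, 464, 597 and 498 in its 12 h libraries. The 1 h libraries held 389, 365, 515 and 288 FPKM and the 0 h libraries 241, 218, 238 and 253. Every fed library at 1 h, 12 h and 24 h was above the 0 h libraries, and the 1 h and 12 h ranges overlapped. Its difference between 12 h and 1 h was 0.42 (limma-trend FDR 0.067). OS08G0139700 was at 81.8 to 102 FPKM at 6 h, 368 to 590 at 12 h and 506 to 690 at 24 h, while its 0 h libraries ranged widely from 64.4 to 276. Its difference between 12 h and 1 h was 1.13 (SE 0.31, limma-trend FDR 0.020), and it was lost at a limma-trend FDR of 0.050 to 0.062 without replicate 1 or 4 of 1 h or replicate 3 of 12 h.

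Among the other abundant members, OS02G0115700 rose by 1.11 from 1 h to 12 h (limma-trend FDR 0.00010), from 121 ± 10.7 to 262 ± 19.9 FPKM (SD, n = 4), and reached 454 ± 92.1 at 24 h. OS02G0176000 rose by 0.43 (limma-trend FDR 0.016), from 80.2 ± 2.64 to 109 ± 15.8 FPKM, and reached 184 ± 28.3, and its call was lost without replicate 1 of 12 h (FDR 0.054, limma-trend). OS03G0764100 and OS04G0469000 did not pass the test, with differences of -0.35 and 0.28, and both averaged 144 FPKM at 24 h.

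**Figure D4:**
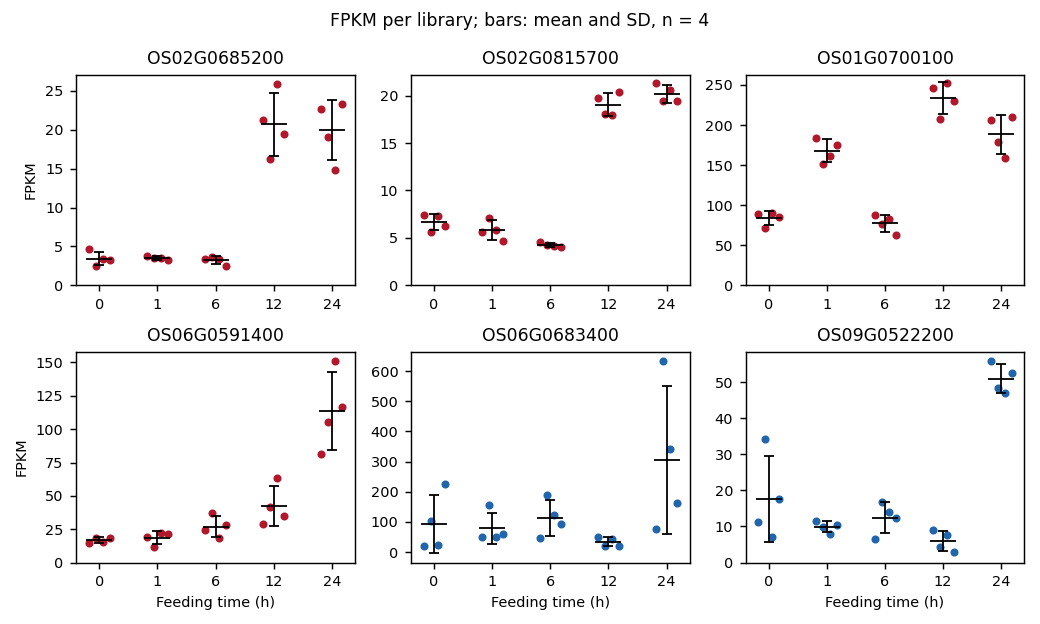
FPKM in each of the 20 libraries for 6 late-rising genes, with the mean and SD of 4 libraries in black (linear axes, red for genes high at 12 h, blue for genes with a 12 h mean below 0 h). OS02G0685200 and OS02G0815700 step up between 6 h and 12 h, OS01G0700100 is high at 1 h, 12 h and 24 h, and OS06G0683400 spans 77.2 to 632 FPKM at 24 h.

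The members lay on all 12 chromosomes, as read from their identifiers, with 15 each on chromosomes 1 and 2 and 4 each on chromosomes 11 and 12. Relative to the OS loci that passed the filter, the share ran from 0.342% on chromosome 4 to 0.726% on chromosome 9. The members' median transcript length, recovered from FPKM, was 937 bases (246 to 2945), compared with 1453 bases for all OS loci that passed. The median length was 1050 bases for the genes high at 12 h, 812.5 bases for the intermediate ones and 911 bases for those with a 12 h mean below 0 h.

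Several members were neighbours in identifier order, at most 3 positions apart among the listed loci. OS09G0522000, OS09G0522100 and OS09G0522200 followed each other directly on chromosome 9 and were all below 0 h at 12 h. OS09G0522200 had 11.3, 34.2, 7.04 and 17.5 FPKM at 0 h, 8.97, 4.36, 7.50 and 2.88 after 12 h, and 55.8, 48.3, 47.1 and 52.5 after 24 h. Its 24 h libraries were closely grouped and above all 16 others. OS09G0522000 went from 2.22 ± 0.28 FPKM at 12 h to 44.0 ± 28.3 at 24 h, and OS09G0522100 from 0.79 ± 0.41 to 7.53 ± 3.54 (SD, n = 4).

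On chromosome 10, OS10G0569400, OS10G0569600 and OS10G0569800 were members and all high at 12 h, with means of 28.9, 27.5 and 653 FPKM at 24 h. Of the loci between them, OS10G0569450 was listed at 0 in every library, and OS10G0569500 missed the rule because its 24 h mean was 2.03 above its 0 h mean but only 0.53 above its 6 h mean. OS06G0591200 lay next to OS06G0591400 on chromosome 6, which was at 15, 18.5, 15.2 and 18.7 FPKM at 0 h and 81.1, 106, 151 and 117 at 24 h, with no overlap. OS06G0591400 had a difference of 1.13 between 12 h and 1 h (SE 0.25, limma-trend FDR 0.0051). The remaining neighbours, OS07G0677100 with OS07G0677200 and OS11G0600600 with OS11G0600900, had 24 h means of 19.2, 65.0, 7.25 and 13.9 FPKM in this order, and OS07G0677200 and OS11G0600600 are named after their values were seen. Near-identical neighbours can share reads, and sequence likeness between these loci was not checked.

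The study's text gives the identifiers of 9 genes of jasmonic acid synthesis, calcium sensing, protein kinase signalling and WRKY regulation, and all 9 passed the filter. None of the 9 was a late-rising gene. Over all OS loci that passed the filter, 98 of 20343 were, so none among 9 says little about these genes. AOC, the allene oxide cyclase of jasmonic acid synthesis, was at 133 ± 15 FPKM at 0 h, 288 ± 77.0 at 6 h and 283 ± 74.7 at 24 h (SD, n = 4), so that its 24 h mean was 0.02 below the 6 h mean in log2 units. OsWRKY53, a WRKY transcription factor, was likewise near its 24 h level at 6 h (24 h minus 6 h, -0.08). Both genes were lower at 12 h, AOC at 189 ± 14.3 FPKM and OsWRKY53 at 143 ± 39.2. For OsWRKY53 this was near its 0 h level of 165 ± 54.8 FPKM. OsWRKY24 came nearest to the rule, with a 24 h mean 1.33 above 0 h and 0.96 above 6 h. OsWRKY45 was 1.13 above 0 h and 0.75 above 6 h, and OsMPK3, a mitogen-activated protein kinase, was 1.41 above 0 h and 0.59 above 6 h. Of the calcium sensors, the calmodulin locus OS03G0319300 was 0.74 above 0 h at 24 h, and the calcium-dependent protein kinase loci OS08G0441100 and OS08G0540400 were 0.82 and 0.16 above. The kinase locus OS12G0113500 was lower at 24 h than at 0 h (-0.48, limma-trend FDR 0.023).

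Membership depended on single libraries. With 1 library left out, the rule gave 74 members without replicate 1 of 6 h, the lowest count, and 135 without replicate 1 of 24 h, the highest. Of the 98 members, 72 and 92 were in these lists. A total of 45 members met the rule whichever library was left out, comprising 23 of the 31 genes high at 12 h, 12 of the 34 intermediate ones and 10 of the 33 with a 12 h mean below 0 h. With a pseudocount of 0.1 in place of 1 the rule gave 187 loci, 88 of them among the 98. In 15 members at least 1 time point averaged fewer than 10 fragments per library, where counting error adds to the spread.

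**Figure D5:**
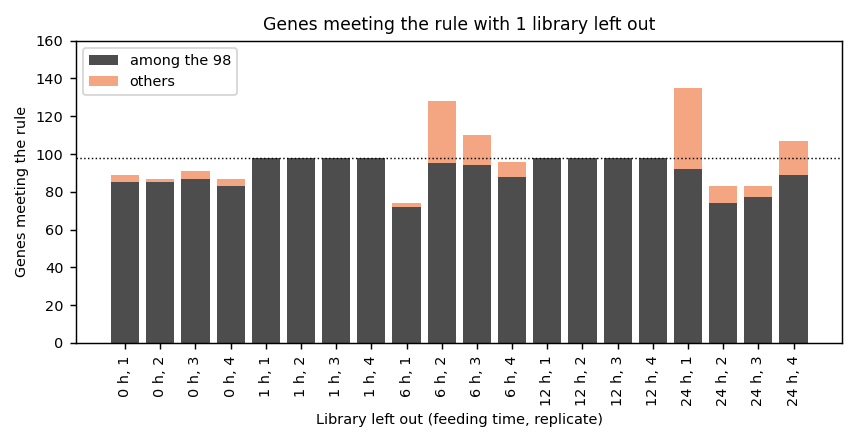
Number of loci meeting the rule with each of the 20 libraries left out in turn, split into those among the 98 members and others, with 98 dotted. Leaving out replicate 1 of 6 h gives 74 and replicate 1 of 24 h gives 135, and leaving out libraries of 1 h or 12 h, which the rule does not average, gives 98.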

How the data were processed

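Leaf RNA-seq of 20 libraries was used, 4 per time point, grouped by the time point label. The authors filtered reads, aligned them to IRGSP-1.0 with HISAT2 (2.09), counted them per gene with featureCounts (1.5.0-p3) and calculated FPKM, and these deposited FPKM of 92858 identifiers were the starting values. Their DESeq2 tests were not used here.

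The members and lists were chosen with earlier results of these data known. Log2(FPKM + 1) of the 24058 identifiers that reached an FPKM of 0.5 in 4 or more libraries was fitted with limma-trend (limma 3.58.1, R 4.3.3), all 20 libraries in 1 fit with 15 residual degrees of freedom, and adjusted by Benjamini-Hochberg over all of them. Fold changes on this scale understate those of low genes. Exact two-sided permutation tests of 4 against 4 cannot go below p = 0.029. For all 35755 identifiers above 0, FPKM steps gave back whole fragments (tolerance 0.01), and with them depth and lengths. The rest used pandas 2.3.3, numpy 2.4.6, matplotlib 3.10.9 and scipy 1.17.1 under Python 3.11.15. Alternatives were another pseudocount, no filter, median-of-ratios factors, limma-voom on the fragments, leaving each library out, a block on the replicate number and the compared time points alone.

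Named members were the 10 with the highest 24 h mean, the 10 highest and 4 lowest differences between 12 h and 1 h, the members nearest each threshold and 3 runs of neighbours (the 2 runs of 3 members and the first in identifier order of the 3 runs of 2), beside the loci in the study's text. Of the OS loci, 1 of 37830 matched the RefSeq table (ASM3414082v1), so gene groups, leaf markers and promoter motifs were not analysed here.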

Additional observations from a re-analysis of the deposited data

Results flagged for a closer look

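Among the named members, 140 groups of 4 libraries were examined for a library far from the other 3, and 13 were found. The criterion was Dixon's ratio on FPKM, the gap to the nearest library over the range of the 4. Its nominal rate of about 1 in 20 holds for independent, normally distributed values. Members were not independent within a library, many were named for extreme values, and normality was not tested. The 13 are therefore a description, and no excess over chance is drawn from them. At 0 h these were replicate 4 of OS06G0133400 (259 FPKM, others 10.1 to 29.5), OS06G0493100 (19.2, others 4.82 to 5.90) and OS10G0569400 (12.5, others 6.63 to 6.66), and replicate 2 of OS09G0522100 (9.49, others 0.78 to 2.19). At 1 h they were replicate 2 of OS02G0642200 (8.48 FPKM), OS06G0133400 (143) and OS06G0683400 (156), replicate 3 of OS08G0139700 (328) and, on the low side, replicate 4 of OS10G0330400 (18.7). At 6 h replicate 1 of OS10G0569600 was low (2.61 FPKM). At 12 h they were replicate 1 of OS02G0642200 (23.9 FPKM) and replicate 3 of OS06G0493100 (76.7) and OS10G0569600 (75.4). Replicate 4 of 0 h and replicate 2 of 1 h each account for 3 of the 13.

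In 8 named members the 12 h mean was above and the 1 h mean below the 0 h mean, and 12 h differed from 1 h by limma-trend. The log2 differences between 12 h and 1 h were 1.11 for OS02G0115700, 0.43 for OS02G0176000, 1.34 for OS02G0589100, 1.57 for OS02G0815700, 1.39 for OS03G0638200, 0.97 for OS06G0591200, 1.44 for OS07G0677100 and 1.65 for OS10G0330400. The 1 h minus 0 h differences of these 8 were smaller, from -0.67 for OS02G0589100 to -0.02 for OS10G0330400. None of the 98 members was called lower at 1 h than at 0 h.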

How the results depend on the processing

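The rise of members from 1 h to 12 h stayed within 1.5 times the main count under each alternative tried, with 27 to 36 called as each library was left out. Fits of the compared time points alone called 3 members lower at 12 h than at 1 h, 0 lower at 12 h than at 0 h, and 2 higher at 1 h than at 0 h. With each library left out, the members lower at 12 h than at 0 h numbered 0 to 2, those higher at 1 h than at 0 h 3 to 6, and those lower at 1 h 0 to 1. A pseudocount of 0.1 gave 187 members, and the cause was not tested.

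Over all identifiers tested, deviations of same-numbered libraries correlated at -0.05 to 0.08 between 0 h, 1 h and 12 h. In pairs with 6 h or 24 h they correlated at -0.16 to 0.24. In no pair of time points were all 4 above 0.1, so the numbers were not used as pairs. That criterion cannot show a link held by a single number. The highest value was 0.24, for replicate 1 of 6 h and 24 h. Replicate 1 also gave 0.18 for 0 h and 24 h and 0.13 for 0 h and 6 h. For 6 h and 12 h it gave -0.09. With the number as a block, 35 members were higher and 0 lower at 12 h than at 1 h, 39 and 1 at 12 h than at 0 h, and 6 and 0 at 1 h than at 0 h. Among named members, the block ended the call for OS10G0569800 (FDR 0.056, limma-trend) and added one for OS03G0290300 (FDR 0.048). None of the 28 members examined singly for 12 h against 1 h changed direction under the alternatives run. The members named only for a threshold or for their 1 h level were not among the 28. Depth limits the 15 members with few fragments at some time point.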
